A study of Mus musculus with 7 samples.

Results

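The comparison asked how the transcriptome of splenic monocytes treated with the antiphospholipid antibody HL7G differs from that of the same kind of cells treated with agonists of the endosomal Toll-like receptors. To this end the 2 arrays titled HL7G were set against the 3 arrays titled R848, CpGB and Poly I/C, which were pooled as 1 group, so that 5 of the 7 arrays of the series were compared and neither unstimulated array entered the comparison. HL7G is a monoclonal antiphospholipid antibody, and was given at 400 ng/ml. R848, a small-molecule agonist of TLR7, was given at 2 µg/ml, CpG B, an oligonucleotide agonist of TLR9, at 2.5 µM, and poly I:C, a mimic of double-stranded RNA sensed by TLR3, at 1 µg/ml. The EPCR genotype was wild type in every group (EPCR is the product of Procr, a receptor for protein C on endothelium), and stimulation lasted 3 h. HL7G was measured once in mouse 1 and once in mouse 2. All 3 agonist arrays, 1 per agonist, came from mouse 1, so for the HL7G array of mouse 2 the animal and the stimulus cannot be told apart. The sources used here do not give strain, age or the way the monocytes were selected.

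Antiphospholipid antibodies are found in antiphospholipid syndrome, a disease of thrombosis and pregnancy loss, and some of them are taken up into endosomes. Endosomal Toll-like receptors recognise nucleic acids. TLR7 and TLR9 signal through the adaptor MYD88 and TLR3 through TRIF (Ticam1), and both routes lead to NF-kB, which drives cytokine and chemokine genes, and to interferon regulatory factors, which drive type I interferon. Interferon in turn induces a large set of antiviral genes through an element called the interferon-stimulated response element in their promoters.

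Levels are log2 values per probe set. Testing covered genes with a single symbol that reached a level of 5 on at least 1 of the 5 arrays, which held for 10092 of 22180 genes. Of the genes named below, Il6, Tlr7, Hif1a, Rb1, Cyld, Cd55, Ptgs2, Ifi214 and Gbp3 were among those that reached that level only with HL7G. Ang4, F3, Procr and Ch25h reached it only with an agonist. For a gene that reached that level in 1 group alone, the filter favours a difference toward that group. Several defining monocyte markers stayed under that level. Ly6c2, a surface marker of classical monocytes, read 4.38 and 4.13 in the HL7G arrays of mouse 1 and mouse 2, and 4.06, 3.96 and 3.88 with R848, CpG B and poly I:C. Ccr2, the chemokine receptor of these cells, read 3.76 to 3.99. Itgam, Fcgr1 and Ace were also under the level, and 9 of the 14 monocyte markers on the array were tested. Csf1r, the receptor for the monocyte growth factor, read 5.58 and 5.61 with HL7G and 5.04 to 5.49 with the agonists, and Lyz2, which encodes lysozyme, read 5.60 to 7.02. Over the tested genes (not independent of each other) the 2 HL7G arrays had r = 0.860, and the 3 pairs of agonist arrays had r between 0.899 and 0.927. With R848, CpG B and poly I:C, the HL7G array of mouse 1 had r of 0.877, 0.832 and 0.822. The HL7G array of mouse 2 had 0.881, 0.875 and 0.893, each higher than its r with the HL7G array of mouse 1. The number of arrays limits the precision: 2 arrays against 3 can be split in 10 ways, so the smallest p that an exact permutation test of 1 gene could give is 0.1.

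No gene passed the threshold. With limma's moderated test and Benjamini-Hochberg adjustment, 0 of 10092 genes had an adjusted p under 0.05 (0%), and the smallest adjusted p was 0.116. At an unadjusted p under 0.05 there were 1376 genes, against 504.6 by chance, of which 1225 were higher with HL7G (12.1%) and 151 lower (1.5%). Both HL7G arrays lay above all 3 agonist arrays in 2111 genes (20.9%) and below all 3 in 981 (9.72%). With a difference in means of at least 2-fold as well, there were 128 genes above (1.27%) and 0 below (0%). Overlap aside, 133 genes were at least 2-fold higher (1.32%) and 2 lower (0.0198%). The median over all genes of HL7G minus agonists was 0.07 on the log2 scale, and 58.7% of genes were on the higher side and 41.3% on the lower. At an adjusted p under 0.2 there were 373 genes higher (3.7%) and 6 lower (0.0595%). The difference depended on how bright a gene was. Genes with a mean level under 5 had a median of 0.000158, those between 5 and 6 had 0.06, those between 6 and 7 had 0.25, those between 7 and 8 had 0.25 and those at 8 or more had 0.21. Between levels 6 and 8 that shift was mainly in mouse 1. Its HL7G array had a median difference of 0.49 between levels 6 and 7 and of 0.62 between 7 and 8. The array of mouse 2 had 0.08 and 0.04. At 8 or more the median was 0.36 in mouse 1 and 0.16 in mouse 2. A rescaling of the arrays therefore moves the balance. The share of genes on the higher side was 49.5% after median centring, 47.3% after cyclic loess and 46.0% after quantile normalization, and the 2-fold count became 88 higher and 1 lower, 48 and 8, and 43 and 5. Quantile normalization moved the median of all genes from 0.07 to -0.03. The excess of genes above all 3 agonists was also smaller. Median centring gave 1692 above and 1454 below, cyclic loess 1544 and 1526, and quantile normalization 1515 and 1501. Without the filter on level, 46.5% of 22180 genes were on the higher side. Their median was -0.02, with 2980 above and 3015 below.

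**Figure D1:**
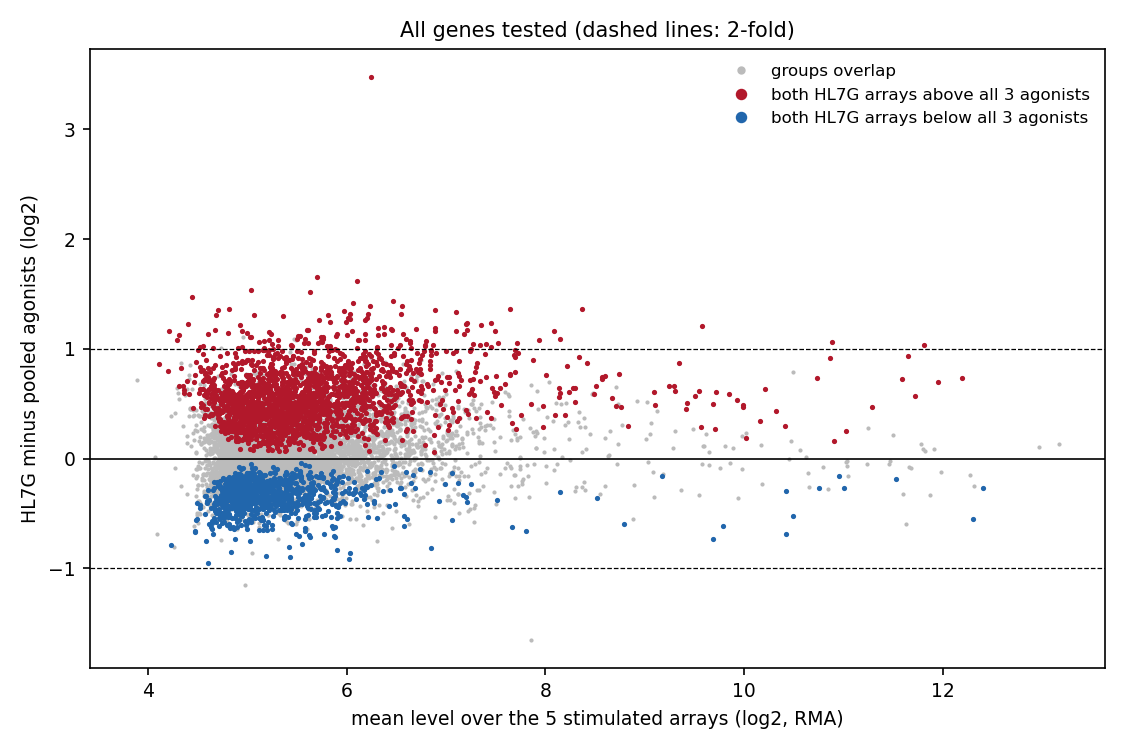
Each point is 1 of 10092 genes, with its mean level over the 5 stimulated arrays (log2) on the x axis and the mean of the 2 HL7G arrays minus the mean of the 3 agonist arrays (log2) on the y axis. Red points are the 2111 genes in which both HL7G arrays lay above all 3 agonists, blue points the 981 in which both lay below, and the dashed lines mark 2-fold.

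Group means hide how far each array of a group lay from the other. The median absolute difference between the HL7G arrays was 0.29, the median range over the 3 agonists was 0.39, and the median absolute difference between the groups was 0.21. The HL7G arrays differed at least 2-fold in 611 genes, and pairs of agonist arrays in 66 to 156. From the single agonist arrays, the HL7G array of mouse 1 differed in 466 to 1019 genes and that of mouse 2 in 222 to 336. The HL7G array of mouse 2 was thus nearer to each agonist array than to the other HL7G array. For this reason each HL7G array is given below on its own against the mean of the agonists. These 2 differences share the agonist arrays and are set side by side only. The HL7G array of mouse 1 lay above all 3 agonists in 4302 genes (42.6%) and below in 2584 (25.6%). That of mouse 2 lay above in 3260 (32.3%) and below in 2249 (22.3%).

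The 12 largest differences on the higher side, among named genes whose groups did not overlap and leaving out predicted loci, small RNAs, chemosensory receptors and antigen receptor segments, held cytokine, interferon-response and signalling genes. Il1a, the inflammatory cytokine interleukin 1 alpha, read 5.77 and 6.17 with HL7G in mouse 1 and mouse 2, and 4.28, 3.91 and 5.09 with R848, CpG B and poly I:C. Both HL7G arrays were above all agonists, and poly I:C was the nearest. The difference was 1.54 ± 0.32 (standard error of the limma fit, n = 2 against 3, adjusted p = 0.118), or 2.91-fold. Stat4, a transcription factor activated by interleukin 12 and by type I interferon, read 6.57 and 6.52 against 4.99, 4.80 and 5.30. Its HL7G arrays were nearly equal and the difference of 1.52 ± 0.22 had the smallest adjusted p, 0.116, shared with other genes. Ifit1bl1, a relative of the antiviral Ifit1, had the largest mean difference of the 12 at 1.62 ± 0.41 (adjusted p = 0.149), with 7.81 and 6.35 against 5.19, 5.18 and 6.02. Mouse 1 was the higher of its HL7G arrays. Ifi214, an interferon-inducible gene of a family with close copies, had the widest split: 6.47 in mouse 1 and 4.57 in mouse 2, against 4.30, 4.46 and 3.74. Mouse 2 was thus little above the CpG B array, and the difference was 1.35 ± 0.46 (adjusted p = 0.249). Jak2, a kinase of cytokine receptors, read 7.74 and 6.94 against 6.09, 5.76 and 6.21, a difference of 1.32 ± 0.27 (adjusted p = 0.118).

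The remaining 7 of the 12 lay above all agonists in both mice as well. Sh3kbp1, an adaptor of receptor endocytosis, differed by 1.44 ± 0.28, Plekho1 by 1.42 ± 0.34, Ssh2, a phosphatase of the actin regulator cofilin, by 1.39 ± 0.22, and Rb1, the retinoblastoma cell cycle inhibitor, by 1.36 ± 0.22. Lilrb4a, an inhibitory receptor of myeloid cells, differed by 1.34 ± 0.29, Ccnl1, a cyclin of RNA splicing, by 1.34 ± 0.22 and Lsm14a, an RNA-binding protein of processing bodies, by 1.32 ± 0.22. Their adjusted p lay between 0.116 and 0.141. All 12 kept groups that did not overlap after median centring, cyclic loess and quantile normalization, where their differences ranged from 0.97 to 1.54. All 12 also read lower in both unstimulated arrays than in either HL7G array, as the plot of the leading genes shows. The same held for the abundant transcripts Actb, B2m, Eef1a1, Tmsb4x, Rps13 and Ncl, named after their values were seen, and not for Gapdh. Eef1a1 read 6.61 and 9.46 unstimulated in mouse 1 and mouse 2, against 10.80 and 10.38 with HL7G. Gapdh read 9.06 and 8.63 against 7.77 and 8.14. A lower unstimulated value was thus not particular to the 12.

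**Figure D2:**
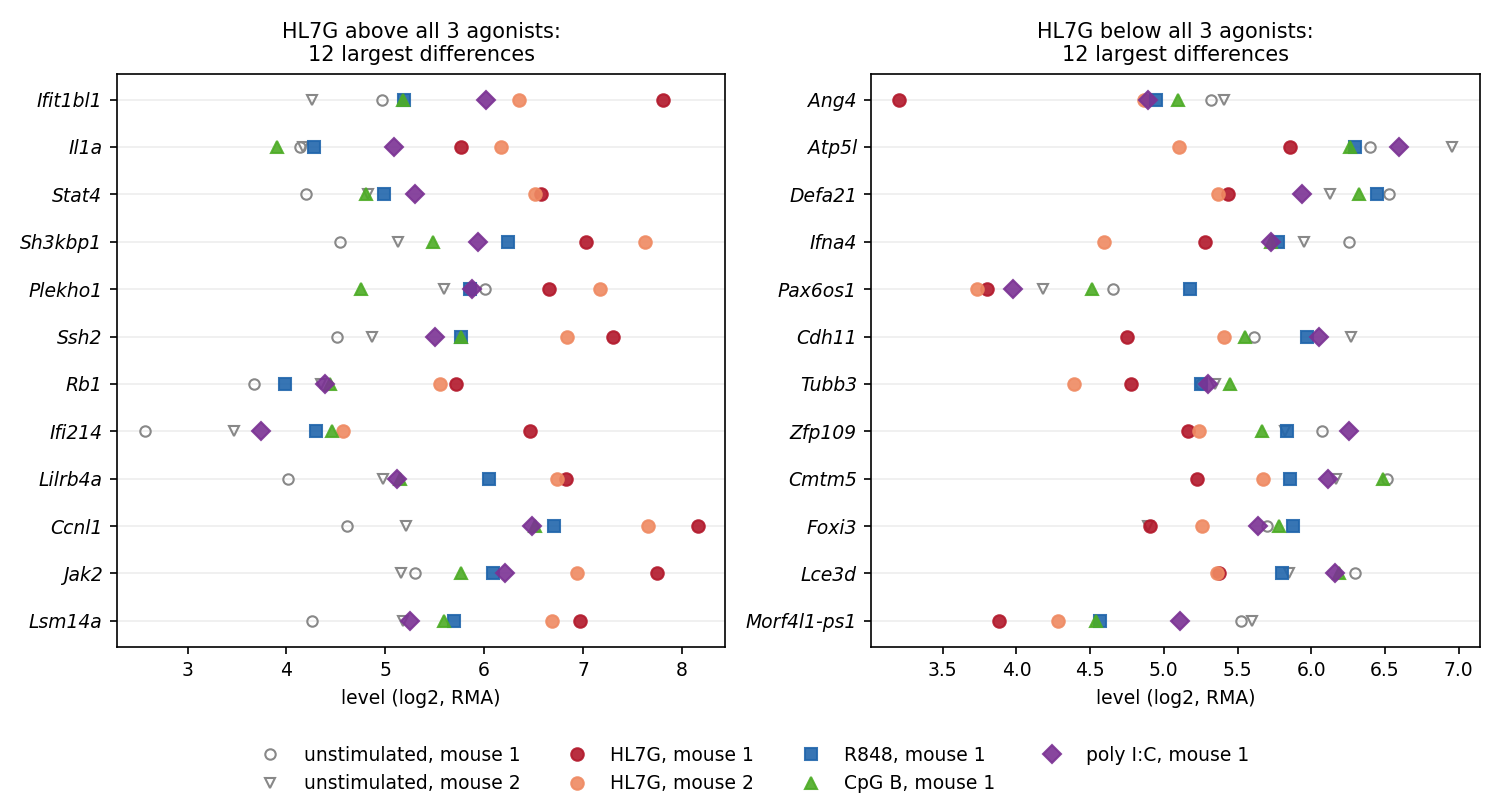
Level (log2) on each of the 7 arrays of the 12 genes with the largest HL7G differences on the higher side (left) and on the lower side (right) whose groups did not overlap. Filled circles are the 2 HL7G arrays, squares, triangles and diamonds the single R848, CpG B and poly I:C arrays, and open symbols the unstimulated arrays, which are shown for reference and were not compared. The HL7G values of Stat4, 6.57 and 6.52, lie together and those of Ifi214, 6.47 and 4.57, far apart.

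The 12 largest differences on the lower side were smaller and lay among dim genes. Ang4, an angiogenin-like ribonuclease, had -0.95 ± 0.39 (adjusted p = 0.331), from 3.20 in mouse 1 and 4.87 in mouse 2 against 4.95, 5.10 and 4.89, so mouse 2 was just under the agonists. Atp5l, a subunit of the mitochondrial ATP synthase encoded in the nucleus, had -0.91 ± 0.26 (adjusted p = 0.185), with 5.85 and 5.10 against 6.30, 6.26 and 6.60. Defa21, an intestinal defensin of a family with many close copies, had -0.83 ± 0.22, and Ifna4, an interferon alpha, had -0.80 ± 0.24 (adjusted p = 0.199). The other 8 were Pax6os1, Cdh11, Tubb3, Zfp109, Cmtm5, Foxi3, Lce3d and Morf4l1-ps1, with differences from -0.79 to -0.66. The highest mean HL7G level among the 12 was 5.48, that of Atp5l, near the level of 5 needed for testing.

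Several inflammatory cytokines and chemokines lay above all 3 agonists in both HL7G arrays. Tnf, which encodes tumour necrosis factor, read 7.82 and 8.09 with HL7G, 6.56 with R848, 6.06 with CpG B and 7.53 with poly I:C. The HL7G arrays lay above all agonists, with poly I:C the nearest, and the difference of means was 1.24 ± 0.37 (2.36-fold, adjusted p = 0.199). Il1b read 7.57 and 8.27 against 6.77, 6.34 and 7.14, a difference of 1.17 ± 0.29 (adjusted p = 0.144), here with mouse 2 the higher. Il6 was dimmer, at 5.03 and 4.63 against 4.32, 3.50 and 4.17 (0.83 ± 0.27, adjusted p = 0.236). Il12b, a subunit of interleukin 12, read 5.38 and 5.04 against 5.64, 4.95 and 5.26, with overlapping groups (-0.08 ± 0.25, adjusted p = 0.926). Of 11 cytokine genes tested, 5 lay above all agonists in both HL7G arrays and 1 below, against 20.9% and 9.72% of all genes tested, and the median difference was 0.43, with 0.67 in mouse 1 and 0.18 in mouse 2. Another 8 cytokine genes, among them Il10, Il15, Il23a and Csf2, were under the level.

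Ccl3, a chemokine that attracts monocytes and lymphocytes, had the smallest error among them: 8.84 and 8.77 with HL7G against 7.74, 7.58 and 7.81, a difference of 1.09 ± 0.20 (2.13-fold, adjusted p = 0.116). All 5 arrays fell close to their group mean. Ccl5, an attractant of T cells, read 9.16 and 8.41 against 7.42, 7.49 and 7.98 (1.16 ± 0.28, adjusted p = 0.133). Ccl2, the monocyte attractant, read 5.70 and 5.49 against 4.77, 4.95 and 5.34 (0.57 ± 0.23, adjusted p = 0.309). Cxcl10, a chemokine induced by interferon, did not separate the groups: it read 7.77 in mouse 1 but 6.21 in mouse 2, against 6.57, 5.53 and 6.91. Of 9 chemokines tested, 5 lay above all agonists in both HL7G arrays, 8 in mouse 1 and 6 in mouse 2. The shares of all genes tested were 20.9%, 42.6% and 32.3%. No chemokine lay below in both, and the median difference was 0.40, with 0.68 in mouse 1 and 0.35 in mouse 2. After cyclic loess the medians were 0.35 for cytokines and 0.34 for chemokines, with 3 and 4 genes above, against 1544 of all 10092 genes.

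**Figure D3:**
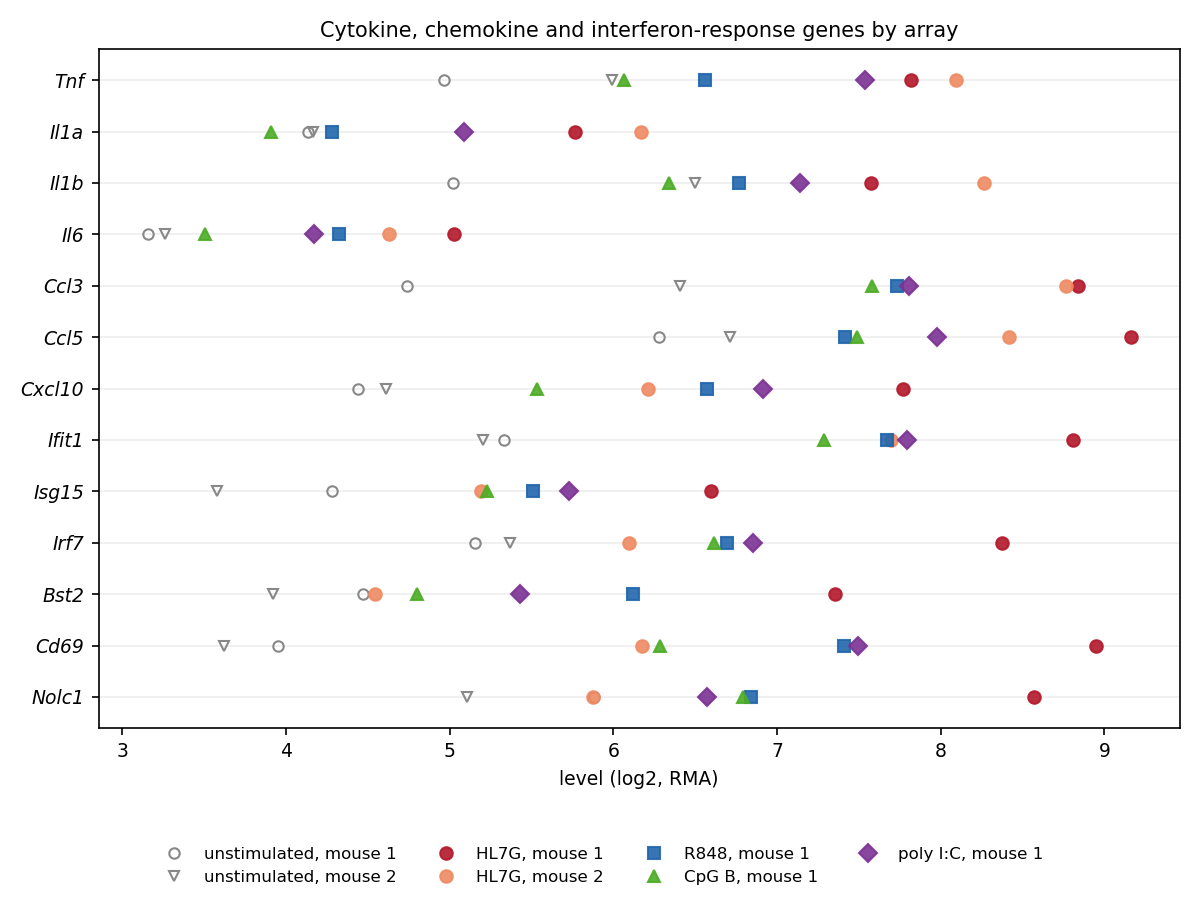
Level (log2) on each of the 7 arrays of 13 cytokine, chemokine, interferon-response and activation genes, with symbols as in the legend. For Tnf, Il1a, Il1b, Il6, Ccl3 and Ccl5 both HL7G arrays lie right of all 3 agonists, while from Cxcl10 to Nolc1 only the HL7G array of mouse 1 lies clear of them to the right.

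Interferon-stimulated genes were higher than with the agonists in the HL7G array of mouse 1 and mostly not in that of mouse 2. Of 48 genes tested, 47 lay above all 3 agonists in mouse 1, and in mouse 2 it was 7 above and 22 below, where all genes tested had 42.6% above in mouse 1, and 32.3% above and 22.3% below in mouse 2. The median difference was 1.24 in mouse 1 and -0.28 in mouse 2, and the median for the mean of both arrays was 0.51. Irf7, the transcription factor that amplifies interferon production, read 8.37 in mouse 1 and 6.10 in mouse 2, against 6.69, 6.61 and 6.85. The agonist arrays were close together and lay between the HL7G arrays, and the difference of 0.52 ± 0.51 (adjusted p = 0.728) is a mean of 1.65 and -0.62. Isg15, a ubiquitin-like modifier, read 6.60 and 5.19 against 5.51, 5.23 and 5.73. Bst2, which tethers virus particles to the cell, read 7.35 and 4.54 against 6.12, 4.80 and 5.43, so that mouse 2 was under every agonist. Eif2ak2, the kinase PKR that senses double-stranded RNA, read 7.18 and 5.08 against 5.14, 5.08 and 4.89, and Gbp3, a guanylate-binding protein, 6.51 and 4.19 against 4.55, 3.94 and 4.53.

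In all, 7 members lay above all agonists in both mice (14.6% of the list, against 20.9% of all genes tested). They were Ifi205, Igtp, Ifi207, Rsad2, Samhd1, Sp100 and Ifit3b. Ifi205, another gene of the family of Ifi214, read 6.95 and 6.22 against 5.85, 4.58 and 5.92 (1.14 ± 0.39, adjusted p = 0.255), and Igtp, an interferon-inducible GTPase, read 7.63 and 6.61 against 6.27, 6.06 and 6.01 (1.01 ± 0.29, adjusted p = 0.190). After quantile normalization 5 lay above, against 1515 of all 10092 genes, and the list median was 0.22. Ifit1 itself read 8.81 and 7.70 against 7.67, 7.29 and 7.79: with HL7G in mouse 2 it was within the range of the agonists. Of 16 genes of interferon itself on the array, 9 were under the level, among them Ifnb1, which read 3.58 and 3.12 with HL7G and 2.93, 3.20 and 3.25 with the agonists. The 7 tested had a median of -0.21, with Ifna4, Ifnl3 (-0.43 ± 0.23) and Ifnl2 (-0.35 ± 0.22) below all agonists in both mice. Interferon genes have close copies, and which of them a probe set reads is uncertain.

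The promoters of some of these genes are shown because the element through which interferon acts stands both in genes that lay above the agonists in both mice and in genes that did so in mouse 1 alone. Sequences are from RefSeq on build GRCm38.p6, the 250 bases before the annotated start, 5′ to 3′ on the gene's strand. Capitals mark matches, searched on both strands, to GAAA, any 2 bases and GAAA again for the interferon-stimulated response element, and to GGGA, any base and TTTCC for a kB site, which NF-kB can bind. A match on the other strand reads as the reverse complement, as in Ifit1bl1. Ifit1bl1 and Stat4 lay above the agonists in both mice, Bst2 in mouse 1 alone, and Il6, with a kB site, in both.
Ifit1bl1, chr19:34601969-34602218, minus strand: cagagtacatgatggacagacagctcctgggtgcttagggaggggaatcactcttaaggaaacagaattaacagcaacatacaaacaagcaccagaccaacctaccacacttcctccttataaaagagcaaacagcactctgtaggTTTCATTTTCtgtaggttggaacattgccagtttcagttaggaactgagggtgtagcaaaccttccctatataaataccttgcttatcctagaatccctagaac
Stat4, chr1:52007990-52008239, plus strand: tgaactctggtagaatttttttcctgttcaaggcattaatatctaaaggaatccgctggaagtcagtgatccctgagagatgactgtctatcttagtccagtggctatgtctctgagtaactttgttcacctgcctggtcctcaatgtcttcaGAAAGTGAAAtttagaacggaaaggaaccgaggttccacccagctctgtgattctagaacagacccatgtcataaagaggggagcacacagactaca
Bst2, chr8:71537473-71537722, minus strand: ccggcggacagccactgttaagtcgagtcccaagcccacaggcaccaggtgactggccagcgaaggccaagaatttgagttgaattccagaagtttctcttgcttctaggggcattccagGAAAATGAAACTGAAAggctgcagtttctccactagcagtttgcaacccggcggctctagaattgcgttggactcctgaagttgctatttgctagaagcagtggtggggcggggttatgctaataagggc
Il6, chr5:30012864-30013113, plus strand: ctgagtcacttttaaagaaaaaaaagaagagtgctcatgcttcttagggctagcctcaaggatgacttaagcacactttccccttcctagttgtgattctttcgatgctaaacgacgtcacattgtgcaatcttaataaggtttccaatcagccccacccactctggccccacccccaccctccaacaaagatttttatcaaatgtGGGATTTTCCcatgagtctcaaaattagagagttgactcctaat
The match in Ifit1bl1 ends 95 bases before the start and that in Stat4 ends 88 bases before it, in each case at 1 of the gene's annotated starts. Bst2 held 2 matches that overlap. The table of promoters held 37 of the 48 interferon-stimulated genes tested, and 18 of the 37 had the interferon element. Of their 45 promoters 19 held it (42.2%), against 978 of 32851 in the table (2.98%). Among the 12 leading genes 10 were in the table and 3 of these held it: Ifit1bl1, Stat4 and Ifi214. Ifna4, on the lower side, held it as well. The kB letters stood in 117 of all promoters (0.356%), and among the cytokine, chemokine, NF-kB and interferon-stimulated genes in those of Il6, Cxcl2, Nfkb2, Nfkbia, Cyld and Gbp5. A match to these letters describes the sequence only.

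Genes of NF-kB and its feedback lay mostly above the agonists in mouse 1 and on either side of them in mouse 2. Of 25 tested, 24 lay above all agonists in mouse 1, against 42.6% of all genes. In mouse 2, 7 lay above and 8 below, near the shares of all genes (32.3% and 22.3%), and the median difference was 0.84 in mouse 1 and -0.13 in mouse 2. Rel, a subunit induced in activated leukocytes, read 8.31 and 6.86 against 6.95, 6.69 and 6.72. The 7 that lay above in both mice (28% of the list, near the 20.9% of all genes) included the subunit Rela, at 7.01 and 6.59 against 6.16, 5.60 and 5.79 (0.95 ± 0.24, adjusted p = 0.149), and Cyld, a deubiquitinase that restrains NF-kB, at 5.71 and 5.50 against 4.87, 4.44 and 4.56 (0.99 ± 0.21, adjusted p = 0.118). Ptgs2, which encodes cyclooxygenase 2, was the reverse of Rel, with 4.60 in mouse 1 and 5.65 in mouse 2 against 4.34, 3.83 and 4.35. Immediate-early genes, which need no new protein to be transcribed, lay above all agonists in both mice in 13 of 26 (50%, against 20.9% of all genes), with a median of 0.43. Btg2, an antiproliferative factor, differed by 0.99 ± 0.22 (adjusted p = 0.118), Klf6 by 0.99 ± 0.30, Zfp36, whose product speeds the decay of cytokine mRNA, by 0.91 ± 0.23 and Ier2 by 0.80 ± 0.22. After quantile normalization the median of NF-kB genes was 0.12 and that of immediate-early genes 0.15, with 7 and 10 above and 2 and 3 below. Of all 10092 genes 1515 then lay above and 1501 below.

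Costimulation and activation markers lay mostly above the agonists in mouse 1 and not in mouse 2. Cd69, an early activation marker of leukocytes, read 8.95 with HL7G in mouse 1 and 6.18 in mouse 2, against 7.41, 6.29 and 7.49 (0.50 ± 0.66, adjusted p = 0.807). Of 11 members 8 lay above all agonists in mouse 1 and 1 in mouse 2, against 42.6% and 32.3% of all genes, and the medians were 0.99 and -0.39. Cd274, the ligand PD-L1, read 7.61 and 6.16 against 6.21, 6.17 and 5.93, and Icosl was the 1 member above in both mice (6.53 and 5.65 against 5.42, 5.54 and 5.38). Genes of JAK-STAT signalling and its feedback had a median of 0.38, with 3 of 12 above in both mice (25%), near the 20.9% of all genes: Jak2, Jak1 (0.87 ± 0.23, adjusted p = 0.160) and the phosphatase Ptpn6 (0.66 ± 0.27). Stat3 read 7.45 and 6.52 against 6.84, 5.70 and 6.48 and overlapped.

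The pathway of the receptors that the agonists engage was compared as well. Tlr7, the receptor of R848, read 5.57 and 4.71 with HL7G, against 4.08, 4.10 and 4.18 with the agonists and 3.77 and 3.51 in the unstimulated arrays. Both HL7G arrays were above, and the difference was 1.02 ± 0.26 (2.03-fold, adjusted p = 0.156). Only the HL7G array of mouse 1 reached the level of 5 needed for testing. Tlr9, the receptor of CpG DNA, read 6.11 and 5.44 against 6.30, 5.95 and 6.03, with mouse 1 within the agonists and mouse 2 below (-0.32 ± 0.25, adjusted p = 0.636). Tlr3 read 4.41 and 3.58 against 3.49, 3.56 and 3.63, and Tlr8 3.53 and 4.03 against 3.95, 3.57 and 3.68, both under the level and not tested. Unc93b1, which carries these receptors to endosomes, read 7.29 and 6.46 against 6.35, 5.79 and 5.75 (0.91 ± 0.29, adjusted p = 0.220). The kinases of interferon regulatory factors, Tbk1 (6.15 and 6.21 against 5.42, 5.26 and 5.37, 0.83 ± 0.19, adjusted p = 0.128) and Ikbke (7.53 and 7.16 against 6.97, 6.55 and 6.34, 0.73 ± 0.24), lay above in both mice. Of 20 members 8 did so (40%), against 20.9% of all genes tested, and none lay below in both, against 9.72%. The others included the adaptors Myd88 (1.09 in mouse 1 and 0.25 in mouse 2) and Ticam1 (0.27 and -0.39), and Irf3 (0.15 and -0.15), whose mean difference was below 0 after each of the 3 rescalings. The list median was 0.17, and 0.0163 after quantile normalization.

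Antigen presentation genes lay mostly on the higher side, beside markers of lymphocytes that did so too. All 14 MHC class I pathway genes were above the agonists' range in mouse 1 and 6 were in mouse 2. Of all genes tested, 42.6% were above in mouse 1 and 32.3% in mouse 2. Tap1, the peptide transporter, read 8.03 and 7.30 against 6.95, 6.68 and 6.68 (0.89 ± 0.25, adjusted p = 0.183), and H2-K1 9.09 and 9.01 against 8.55, 8.04 and 8.30 (0.75 ± 0.22, adjusted p = 0.190). Of 9 MHC class II genes 4 lay above in both mice (44.4%, against 20.9% of all genes), with a list median of 0.46 that was 0.11 after cyclic loess. H2-Ab1 read 8.45 and 8.09 against 8.06, 7.66 and 7.65, so that mouse 2 and R848 were nearly equal. B cells express MHC class II, and 6 of 9 B cell markers tested lay above all agonists in both mice (66.7%, against 20.9% of all genes). After cyclic loess 4 of the 9 did, against 1544 of all 10092 genes, and after quantile normalization 3, against 1515. The median of these markers was 0.60 as deposited, 0.45 after cyclic loess and 0.43 after quantile normalization. Cd22 read 6.43 and 6.65 against 5.87, 5.36 and 5.88 (0.84 ± 0.23, adjusted p = 0.171) and Cd79b 6.47 and 7.09 against 6.03, 6.08 and 6.19. The mean level of the 9 was 6.34 and 6.10 with HL7G, 5.95 with R848, 5.54 with CpG B and 5.76 with poly I:C. Their part in the MHC class II values was not tested.

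T cell markers separated the groups more completely than any other cell type list. Of 10 tested, 9 lay above all agonists in both mice (90%, against 20.9% of all genes), and the tenth, Cd8b1, did in mouse 1. Cd3g, a chain of the T cell receptor complex, read 6.90 and 6.68 against 5.60, 5.80 and 5.11 (1.28 ± 0.24, 2.44-fold, adjusted p = 0.116). Cd3e read 6.47 and 6.08 against 5.16, 5.53 and 5.55 (0.86 ± 0.22) and Cd3d 7.31 and 6.92 against 6.56, 5.93 and 6.28 (0.86 ± 0.24). The mean level of the 10 was 6.25 and 6.15 with HL7G, 5.58, 5.50 and 5.49 with the agonists, and 5.06 and 5.26 unstimulated. The list median was 0.63, nearly the same in mouse 1 (0.69) and mouse 2 (0.67). After cyclic loess it was 0.49, with 7 markers above, against 1544 of all 10092 genes. In RNA of a mixed sample, more cells of a type and more RNA per cell cannot be told apart, and T cells also express Stat4, Ccl5 and Ccl3. The part of T cells in the values of those genes was not tested.

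Markers of cell types other than T and B cells showed no such separation. Monocyte markers had a median of 0.09, with 3 of 9 above (33.3%) and 1 below in both mice, against 20.9% and 9.72% of all genes. After cyclic loess 0 monocyte markers lay above, against 1544 of all 10092 genes. Lyz2 read 6.20 and 7.02 against 6.18, 5.60 and 5.60, and Cd68 read 5.84 and 5.83 against 6.20, 6.17 and 6.08. Their mean level was 5.95 and 5.76 with HL7G and 5.64 to 5.76 with the agonists. Conventional dendritic cells (0.10 over 6 genes), red pulp macrophages (0.09 over 6), endothelial and stromal cells (0.10 over 4) and plasmacytoid dendritic cells (0.13 over 6) had medians near that of all genes. Platelet markers had -0.28 over 3. For NK cells 7 of 8 markers, for neutrophils 9 of 11 and for erythroid cells 3 of 4 were under the level, and all 9 of basophils, mast cells and eosinophils were. The pan-leukocyte phosphatase Ptprc, named after its values were seen, read 8.09 and 8.30 with HL7G against 7.06, 6.86 and 6.96 (1.23 ± 0.20, adjusted p = 0.116). It was not alone among abundant transcripts. Rps13 (1.04 ± 0.20), Tmsb4x (0.75 ± 0.21), B2m (0.61 ± 0.23) and Eef1a1 (0.30 ± 0.21) also lay above all agonists in both mice. Actb (0.59 ± 0.33), Ncl (0.06 ± 0.45) and Gapdh (-0.07 ± 0.26) overlapped.

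Transcripts of the mitochondrial genome separated HL7G from the agonists in both mice. These genes encode subunits of the respiratory chain. Of 10 tested, 9 lay above all agonists in both mice (90%, against 20.9% of all genes). The exception was ND6, whose difference of 0.12 was -0.05 after cyclic loess and quantile normalization. ND2 read 11.45 and 11.58 against 10.27, 10.43 and 10.66, a difference of 1.06 ± 0.21 (2.09-fold, adjusted p = 0.118), and ND4 read 12.47 and 12.39 against 11.39, 11.12 and 11.68 (1.03 ± 0.22, adjusted p = 0.118). The mean level of the 10 was 11.78 and 11.91 with HL7G, 11.02, 11.03 and 11.30 with R848, CpG B and poly I:C, and 11.03 and 11.02 unstimulated. The agonist arrays were thus near the unstimulated ones and both HL7G arrays above. The list median was 0.73, with 0.66 in mouse 1 and 0.86 in mouse 2. Under the 3 rescalings it ranged from 0.65 to 0.66, with 8 or 9 genes above, against 1515 to 1692 of all 10092 genes.

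**Figure D4:**
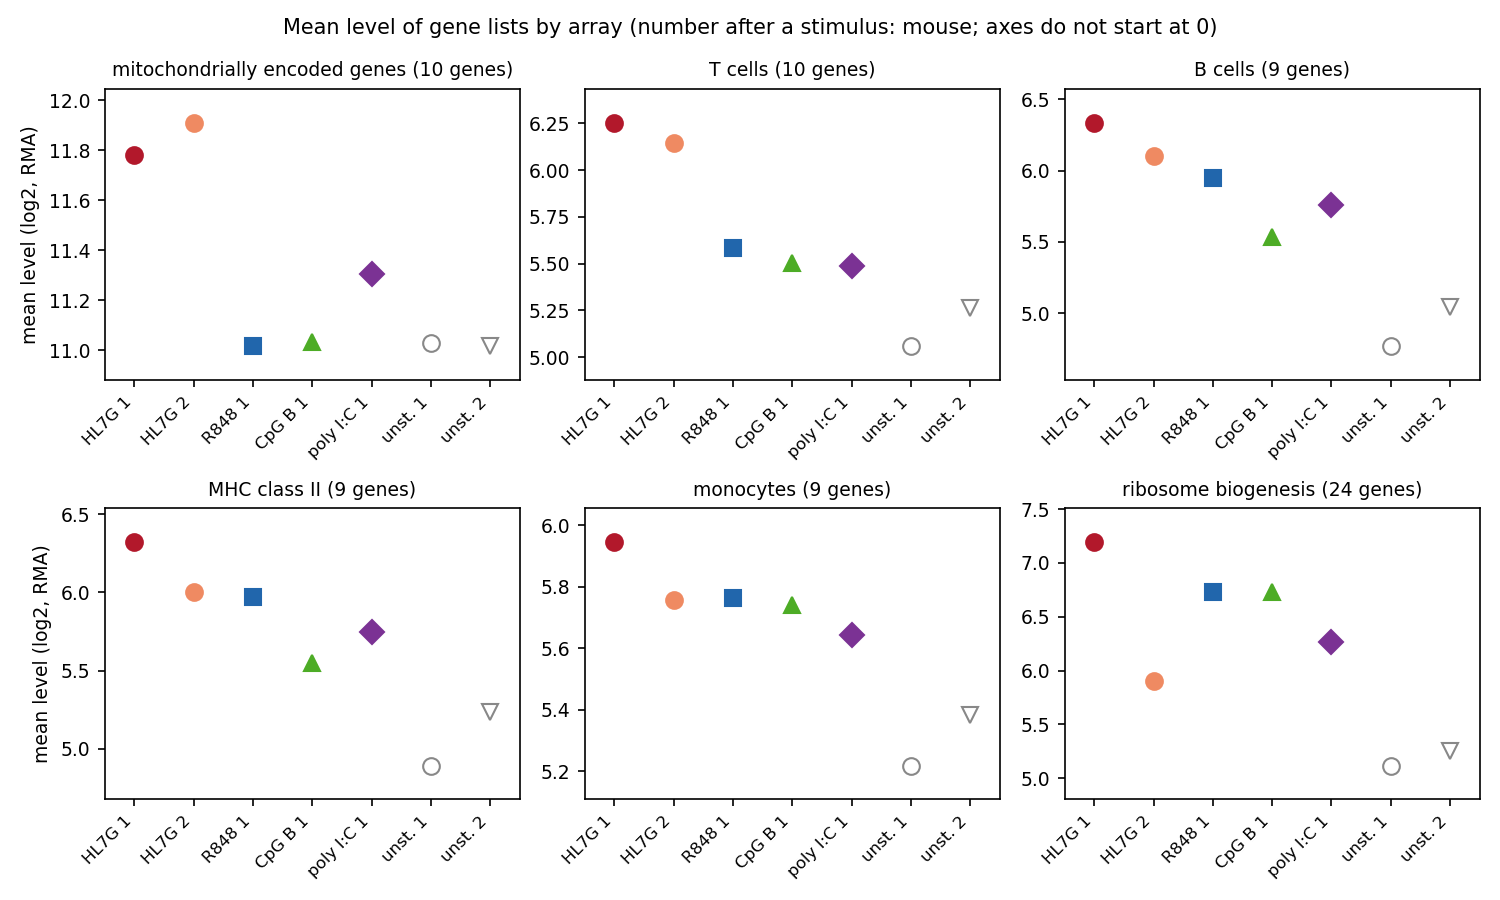
Mean level (log2) on each array of the tested members of 6 lists, with the number of genes above each panel and the number of the mouse after each stimulus. Mitochondrially encoded genes and T cell markers lie highest on both HL7G arrays, whereas the ribosome biogenesis genes are highest with HL7G in mouse 1 and lowest of the stimulated arrays with HL7G in mouse 2.

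Ribosome biogenesis genes, which encode nucleolar factors needed for growth, had HL7G values on either side of the agonists. Their median difference was 0.61 in mouse 1 and -0.69 in mouse 2, and the median for the mean of both arrays was -0.03. In mouse 1, 17 of 24 lay above all 3 agonists, against 42.6% of all genes, and in mouse 2, 21 of 24 lay below, against 22.3%. Nolc1, a nucleolar phosphoprotein, read 8.57 and 5.88 against 6.84, 6.79 and 6.57. Dkc1, the enzyme of RNA pseudouridylation, read 6.01 and 4.26 against 5.76, 6.03 and 5.39, and Nop2, an RNA methyltransferase, 7.17 and 5.71 against 7.30, 6.58 and 6.56. The mean level of the 24 was 7.20 and 5.91 with HL7G, 6.73, 6.73 and 6.26 with the agonists, and 5.12 and 5.25 unstimulated. Heat shock chaperones had a like member in Hspd1, with 6.21 and 4.62 against 6.43, 5.71 and 5.46, and a list median of -0.04. The difference between the HL7G arrays of the mice was not tested.

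Other metabolic and stress genes lay nearer to all genes. Glycolysis genes had a median of 0.31, with 4 of 14 above in both mice (28.6%, near the 20.9% of all genes) and Hif1a, the hypoxia-inducible regulator on this list, at 5.24 and 4.97 against 3.97, 4.32 and 4.06 (0.99 ± 0.21, adjusted p = 0.118). The unfolded protein response had 0.19, with 3 of 14 above, among them Edem1 (0.96 ± 0.22, adjusted p = 0.127) and Dnajc3 (0.77 ± 0.23). Cell cycle genes had 0.11, which was -0.09 after quantile normalization, and 3 of 16 above, among them Mcm4 (0.82 ± 0.22) and Mki67 (0.76 ± 0.21). Sterol synthesis had 0.05, which was -0.07 after quantile normalization, with Ch25h, the maker of 25-hydroxycholesterol, below all agonists at 4.38 and 4.32 against 5.05, 4.49 and 4.73. The BCL2 family had -0.05 with 0 of 11 above and 1 below.

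**Figure D5:**
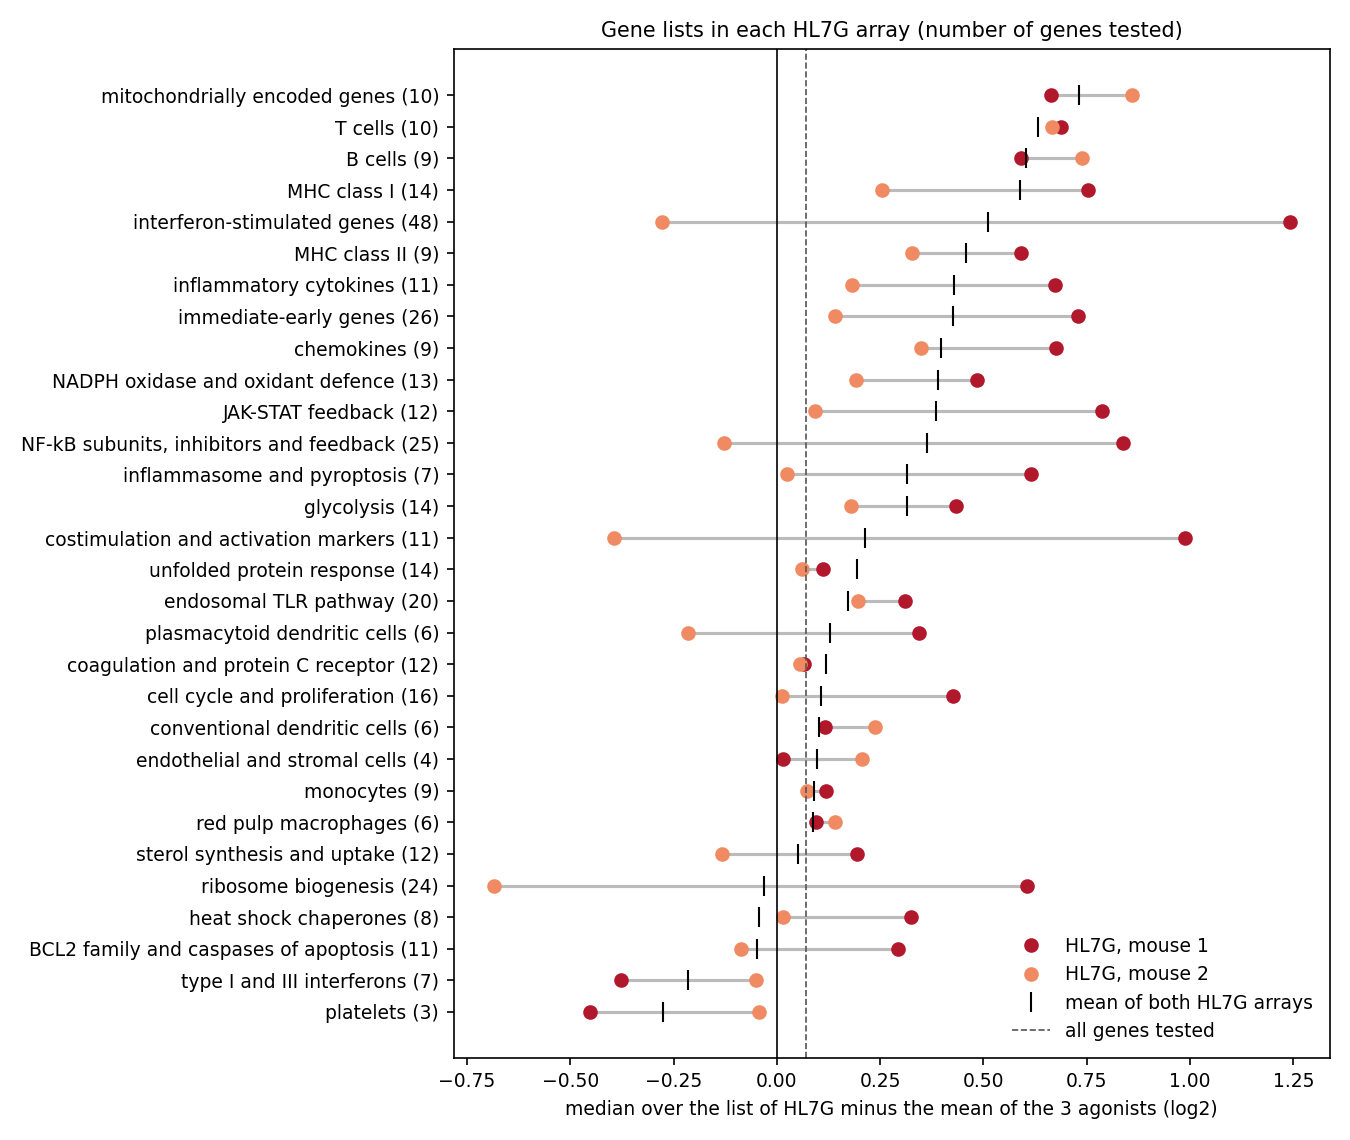
Median over each list of the HL7G level minus the mean of the 3 agonists (log2), for the HL7G array of mouse 1 (dark) and of mouse 2 (light), with a tick for the mean of both, a dashed line at the median of all genes (0.07) and the number of genes tested in brackets. The interval between the points is wide for interferon-stimulated genes (1.24 and -0.28), costimulation markers (0.99 and -0.39) and ribosome biogenesis (0.61 and -0.69) and narrow for T cell markers (0.69 and 0.67).

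Genes of the oxidant, coagulation and inflammasome routes were included because EPCR is a receptor of the coagulation system and antiphospholipid antibodies are known to act through endosomal NADPH oxidase. Of 13 NADPH oxidase and oxidant defence genes 7 lay above all agonists in both mice (53.8%) and 1 below, against 20.9% and 9.72% of all genes. Hmox1, haem oxygenase 1, read 6.14 and 6.95 against 6.06, 5.45 and 5.46 (0.89 ± 0.29, adjusted p = 0.234), and Gclm, of glutathione synthesis, 5.45 and 5.79 against 5.04, 4.69 and 5.18. Cybb, the catalytic subunit of the phagocyte oxidase, read 7.92 and 6.82 against 7.02, 6.38 and 6.48, so that mouse 2 lay under R848. The list median was 0.39, and 0.08 after cyclic loess, with 3 above, against 1544 of all 10092 genes. F3, which encodes tissue factor, the starter of coagulation, was dim and lay below all agonists: 4.45 and 4.70 against 5.09, 4.78 and 4.97 (-0.37 ± 0.21, adjusted p = 0.483). Procr, the receptor EPCR, read 4.63 and 4.82 against 5.23, 4.94 and 4.96 (-0.31 ± 0.20, adjusted p = 0.557). The coagulation list had 3 of 12 above (25%, near the 20.9% of all genes), 3 below (against 9.72% of all genes) and a median of 0.12. F3 and Procr, which count among those below, reached the level of 5 only with an agonist. The filter thus favoured their place below, and the count is not read as a result. Inflammasome genes had 0 of 7 above in both mice and a median of 0.32. Casp8 read 7.45 and 6.56 against 6.67, 6.17 and 6.05, and Nlrp3, Casp1 and 3 others were under the level.

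The pooled agonists were not equally distant from HL7G. Taking the mean of the HL7G arrays minus each agonist array, the median over interferon-stimulated genes was 0.30 against R848, 0.68 against CpG B and 0.49 against poly I:C. For NF-kB genes it was 0.13, 0.38 and 0.54, and for ribosome biogenesis -0.17, -0.15 and 0.35. For T cell markers it was 0.54, 0.72 and 0.63, and for mitochondrially encoded genes 0.82, 0.83 and 0.61. Over all genes it was 0.04, 0.08 and 0.13. Without the R848 array, 216 genes lay at least 2-fold above the other agonists and 12 below, against 113 and 2 without CpG B and 126 and 2 without poly I:C.

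Taking the mouse as a block, which pairs arrays of the same animal, leaves the mouse 2 HL7G array with no partner, so that the fit tests the HL7G array of mouse 1 against the 3 agonists of mouse 1. There 329 genes had an adjusted p under 0.05 in limma, 324 higher (3.21%) and 5 lower (0.0495%), with the lone HL7G array assumed to vary like the agonist arrays. Of the interferon-stimulated genes 26 of 48 were among the higher ones, as were 5 of 26 immediate-early genes, 2 of 25 NF-kB genes, 2 of 9 chemokines, 1 of 10 T cell markers and 0 of 10 mitochondrially encoded genes. Stat4 had 1.54 (adjusted p = 0.0206), Ccl3 1.13 (adjusted p = 0.0376) and Cd3g 1.40 (adjusted p = 0.0353), while Il1a had 1.34 (adjusted p = 0.0709) and Tnf 1.10 (adjusted p = 0.161). With only the HL7G array of mouse 2 against the same agonists, 0 genes passed, and 947 had an unadjusted p under 0.05. When the unstimulated arrays were added so that both mice had a pair, with the mouse as a block, again 0 passed, and 677 had an unadjusted p under 0.05.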

How the data were processed

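RNA of mouse spleen monocytes was hybridised to Affymetrix Mouse Gene 2.0 ST arrays. The deposited values are log2 probe set levels, made by the authors with RMA in Affymetrix Expression Console and Transcriptome Analysis Console, per the submitters' processing notes. No versions are given in the sources used here. Of 41345 probe sets 23521 had 1 gene symbol in the platform annotation, 1814 several and 16010 none, and array medians were 4.40 to 4.54. The brightest single-symbol probe set on average stood for each gene. Genes at 5 or more on at least 1 of 5 arrays entered a 2-group fit (limma 3.58.1, R 4.3.3), with Benjamini-Hochberg adjustment. The fit was first run on simulated arrays without a mouse effect or differences between agonists, so that run does not cover this design. A gene list is described by counts and medians, with no test of its own.

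HL7G replicates are 2 mice, and the agonist arm is 3 treatments with 1 array each, so its spread includes differences between agonists. Replicate numbers are mice. Deviations of the unstimulated and HL7G arrays of a mouse had r = -0.14 over 10092 genes. Named genes are the 12 with the largest difference in each direction whose groups did not overlap (without predicted loci, small RNAs, chemosensory receptors and antigen receptor segments), up to 4 per list, and cytokine, receptor and marker genes of the pathway. Members and lists were chosen with earlier results of these data known. Alternatives covered the model, the block, filter, probe sets, scaling and each array left out.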

Additional observations from a re-analysis of the deposited data

How the results depend on the processing

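No gene passed an adjusted p of 0.05 in limma under any alternative except those that use the HL7G array of mouse 1 alone: 329 genes passed with the mouse as a replicate block over 5 arrays and, which is the same comparison, without the HL7G array of mouse 2, so that the range with 1 array left out is 0 to 329. The smallest adjusted p was 0.0572 with a variance trend, 0.565 with 4 groups, 0.345 with 5 groups over 7 arrays, 0.596 with the mouse as a block over 7 arrays and 0.481 without CpG B. The counts of genes without overlap and at least 2-fold apart, 128 higher and 0 lower, became 67 higher at a mean level of 6 or more. They became 2 lower without a filter, 1 lower after median centring, 48 higher and 8 lower after cyclic loess, and 43 and 5 after quantile normalization. At 1.5-fold they were 867 and 60, and at 3-fold 3 higher. With 1 array left out they ranged from 113 to 578 higher and from 2 to 43 lower. The cause of these shifts was not tested.

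Several genes changed sign. With the mouse as a block over 5 arrays Dkc1 became 0.29, Hspd1 0.34, Il12b 0.10, Nop2 0.36, Nfkbia 0.33, Ticam1 0.27 and Tlr9 0.0171, and over 7 arrays Il12b became 0.0184, Nop2 0.0208 and Ticam1 0.26. With 1 array left out, the differences ranged from -0.90 to 1.90 for Bst2, -0.89 to 1.88 for Cd69, -0.13 to 1.43 for Cxcl10, -0.14 to 2.17 for Gbp3, -0.62 to 1.65 for Irf7, -0.30 to 1.11 for Isg15, -0.33 to 1.92 for Gbp5, -0.13 to 1.17 for Nfkb2 and -0.86 to 1.84 for Nolc1. They ranged from -1.47 to 0.29 for Dkc1, -1.24 to 0.34 for Hspd1, -0.25 to 0.10 for Il12b, -1.11 to 0.36 for Nop2, -0.43 to 0.33 for Nfkbia, -0.39 to 0.27 for Ticam1, -0.15 to 0.15 for Irf3, -0.0263 to 0.23 for ND6 and -0.65 to 0.0171 for Tlr9. Genes named here that changed sign under a rescaling included Irf3 and ND6. Irf3, at 0.000126 as deposited, became -0.0747 after median centring, -0.0794 after cyclic loess and -0.0899 after quantile normalization. ND6 became -0.0525 after cyclic loess and -0.0536 after quantile normalization. Ncl, at 0.06 as deposited, was not followed under the alternatives. Its HL7G arrays lay on either side of the agonists' mean, at 0.95 in mouse 1 and -0.83 in mouse 2. Many monocyte markers and interferon genes lay too near the background for a difference to be measured.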

Other observations

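Several lymphocyte signalling genes, picked after their values were seen, were among the 128 genes at least 2-fold above the agonists without overlap. Blk, a kinase of B cells, read 6.71 and 6.89 with HL7G in mouse 1 and mouse 2, against 5.76, 5.26 and 5.56 with R848, CpG B and poly I:C (1.28 ± 0.22, limma adjusted p = 0.116). Lef1, a transcription factor of T cells, read 7.42 and 7.56 against 6.42, 6.22 and 6.73 (1.04 ± 0.22, adjusted p = 0.118). S1pr1, which guides lymphocytes out of tissues, differed by 1.18 ± 0.25, Malt1, of antigen receptor signalling, by 1.14 ± 0.21, and Slamf6 by 1.03 ± 0.20. Both HL7G arrays of each lay above all agonists. Among genes of myeloid cells, Acod1, which makes itaconate, read 7.05 and 6.95 against 5.91, 4.99 and 6.16 (1.32 ± 0.32, adjusted p = 0.141). Cd55, an inhibitor of complement on the cell surface, read 5.42 and 5.53 against 3.86, 4.47 and 4.16 (1.31 ± 0.23, adjusted p = 0.116).

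Small RNAs held the largest difference in either direction of all genes tested. Those named were also picked after their values were seen. Snord70, a small nucleolar RNA, read 7.31 and 9.36 with HL7G against 6.22, 3.11 and 5.25 (3.47 ± 0.81, adjusted p = 0.127), with values far apart within each group. Rny1, a Y RNA, read 8.64 and 9.74 against 7.66, 7.47 and 8.35 (1.37 ± 0.35, adjusted p = 0.156), and Rny3 differed by 1.24 ± 0.34. Y RNAs are small noncoding RNAs bound by the Ro protein. On the other side, Snord37 read 8.17 and 5.55 against 9.67, 8.17 and 7.70, with overlapping groups (-1.65 ± 0.71, adjusted p = 0.348). Of 77 small nucleolar RNAs 14 lay above and 8 below all agonists in both mice, with a median of -0.05, where all genes had 20.9% above and 9.72% below. Of 5 Y and U RNAs it was 2 and 2, with a median of -0.33. Of 217 small RNA genes, 7 were at least 2-fold higher without overlap (3.23%), against 1.19% of the 8873 other named genes. MicroRNA loci had 5 of 135 above and 20 below all agonists and a median of -0.14. The 7052 probe sets with no symbol or several, which the comparison leaves out, had 791 above (11.2%), 1021 below (14.5%) and a median of -0.08.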
